A study of Mus musculus with 2 samples.

Results

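Expression was examined for 10 genes that make or remove reactive oxygen in the gut epithelium, namely the NADPH oxidase Nox1, the dual oxidase pair Duox2 and Duoxa2, the glutathione peroxidases Gpx1, Gpx2, Gpx3 and Gpx4, catalase (Cat) and the superoxide dismutases Sod1 and Sod3. They were taken by gene symbol, and 8 of the 10 were measured, by 15 of the 45101 probe sets on the array. Nox1 and Duox2, the 2 catalytic oxidases, had no named probe set in the annotation used and were not analysed here, so that the set holds 1 maturation factor and 7 antioxidant enzymes.

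In the epithelium of the gut superoxide and hydrogen peroxide are produced at the cell surface by the NADPH oxidase Nox1, which needs the organizer Noxo1, the activator Noxa1, the membrane subunit Cyba and the small GTPase Rac1, and by the dual oxidase Duox2, which leaves the endoplasmic reticulum only together with its maturation factor Duoxa2. Superoxide dismutases turn superoxide into hydrogen peroxide, and catalase and the glutathione peroxidases break the peroxide down. Gpx1, Gpx2, Gpx3 and Gpx4 carry selenocysteine in their active site.

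Total RNA from a biopsy of colon and from one of small intestine was processed and hybridised to an Affymetrix Mouse Genome 430 2.0 array each, with 1 array per tissue. Both tissues came from wild-type adult mice according to the labels, which name no strain, no treatment and no number of animals, and the comparison of both regions is the only one the design allows. The methods of the study describe jejunum and distal colon of C57B6 mice but point to another deposited data set for their arrays, so whether this holds for the arrays used here is unknown. Levels are log2 values after GCRMA, a normalization that corrects for probe composition. With 1 array per tissue no difference had a replicate check and no test was possible. The RNA is that of bulk tissue, in which fewer cells of a type and less RNA per cell cannot be told apart.

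A level of 5 was taken as background, values under it were raised to it before differences were formed, and a gene was counted as higher in a tissue at 3-fold or more, a difference of 1.58 on the log2 scale. Of the 8 measured genes, 6 lay above background on both arrays and 2, Duoxa2 and Sod3, on neither. All 8 epithelial marker genes were well above background, between 12.51 and 14.95 on the colon array and between 11.90 and 14.73 on the other. Of these 8 only Vil1 reached 3-fold, 3.02-fold towards small intestine, and their summed level was 16.57 in colon and 16.92 in small intestine. Markers of smooth muscle reached 3-fold towards colon for 4 of 6 genes, with a summed level of 14.43 against 13.00. Those of fibroblasts did so for 2 of 6 (13.32 against 12.61) and those of the exocrine pancreas for 6 of 6 (15.04 against 6.48). Of all genes above background on either array, 5.71% reached 3-fold towards small intestine and 5.49% towards colon. The smooth muscle and fibroblast genes short of 3-fold were also brighter in the colon on their brightest probe sets. The part of these cell types in the values given here was not tested. None of 7 neutrophil markers exceeded background on either array, and of 4 red blood cell genes only Hbb-b2 did, with 5.19 in colon and 5.23 in small intestine.

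Catalase was the 1 gene of the set that reached 3-fold, and it was higher in the small intestine. Gpx3, Gpx2 and Gpx4 were higher there by less than 3-fold, Gpx1 was slightly higher in the colon, and Sod1 was almost equal in both. At 3-fold or more, 1 of the 8 genes thus favoured small intestine and none favoured colon. Among 11016 genes above background on either array, this rule held for 5.71% towards small intestine, 5.49% towards colon and 11.2% in either direction. Beside these shares 1 gene of 8, or of the 6 above background, is no result about the set. The median difference of the 8 genes was 0.42 and that of the 6 above background was 0.81 on the log2 scale, whereas it was -0.06 over the 11016 genes.

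**Figure D1:**
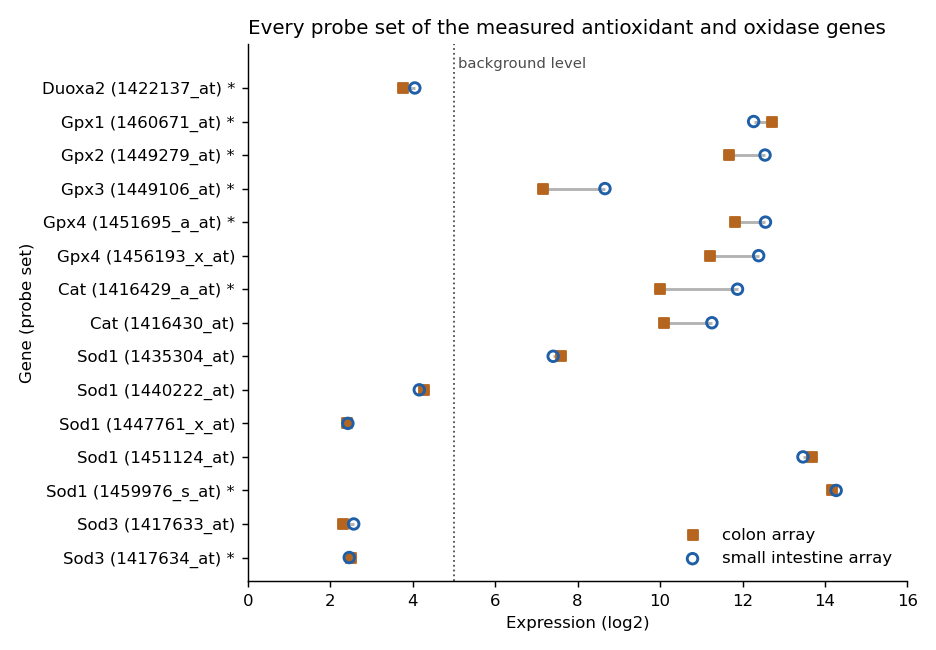
Log2 expression of each of the 15 probe sets on the colon array (filled squares) and the small intestine array (open circles), with a dotted line at the background level of 5 and an asterisk at the probe set used for each gene. Both catalase sets, both Gpx4 sets and the sets of Gpx2 and Gpx3 lie further right in the small intestine, and Duoxa2 and Sod3 lie left of the line on both arrays.

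Catalase is the peroxisomal enzyme that splits hydrogen peroxide into water and oxygen. Its brighter probe set, marked as shared by transcripts of the same gene, had a level of 10.00 in colon and 11.88 in small intestine. This was a difference of 1.87 or 3.66-fold. Its other probe set had 10.10 in colon and 11.26 in small intestine, a difference of 1.16 or 2.23-fold. Both were thus higher in the small intestine, but the second did not reach 3-fold, nor did the median of both (1.52). Of the 11016 genes, 461 (4.18%) were shifted towards the small intestine at least as far as the brighter set. The tissue difference had a pooled SD of 0.54 between probe sets of the same gene, over 3535 genes with more than 1 set above background on both arrays. This SD does not measure the spread between arrays or animals.

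The upstream sequence of Cat is shown because it is the gene past the rule, together with that of Gpx3, which came next, and of Gpx1, which went the other way. Each is the stretch of 250 bases before the annotated start, 5′ to 3′ on the strand of the gene, from RefSeq in build GRCm38.p6. They lie at chr2:103485154-103485403 (minus strand) for Cat, chr11:54902604-54902853 (plus strand) for Gpx3 and chr9:108338830-108339079 (plus strand) for Gpx1. Capitals mark matches to 4 motifs searched on both strands. They are the antioxidant response element core TGACNNNGC, the AP-1-like pattern TGANTCA with any middle base, the CCAAT box CCAAT and the GC box GGGCGG. The first and second can overlap.
Cat: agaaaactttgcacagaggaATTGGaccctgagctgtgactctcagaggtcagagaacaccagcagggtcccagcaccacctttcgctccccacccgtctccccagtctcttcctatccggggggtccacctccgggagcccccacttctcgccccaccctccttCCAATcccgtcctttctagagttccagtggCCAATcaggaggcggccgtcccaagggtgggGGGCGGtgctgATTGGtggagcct
Gpx3: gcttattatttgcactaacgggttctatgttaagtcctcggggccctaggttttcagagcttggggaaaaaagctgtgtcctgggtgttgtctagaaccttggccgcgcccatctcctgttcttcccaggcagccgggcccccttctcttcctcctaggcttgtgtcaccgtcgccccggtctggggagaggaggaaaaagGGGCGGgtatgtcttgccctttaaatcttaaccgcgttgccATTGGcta
Gpx1: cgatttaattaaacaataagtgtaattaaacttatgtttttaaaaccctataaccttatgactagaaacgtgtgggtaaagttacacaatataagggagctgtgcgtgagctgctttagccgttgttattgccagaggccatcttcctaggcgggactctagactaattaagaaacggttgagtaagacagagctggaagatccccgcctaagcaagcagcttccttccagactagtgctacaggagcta

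Promoter windows of 300 bases, from 250 before to 50 after the start, were given for 9 of the 10 genes, all but Sod3, with 12 windows in all. The Cat window held 4 CCAAT matches, at 230, 85, 55 and 13 bases before the start counted to the first base of each match, and 1.06% of 32851 promoter windows held as many or more. The Gpx3 window held 2, as 11.7% of all windows did or exceeded, and the Gpx1 window held none. Of the 4 Gpx4 windows 2 held 3 matches each, as 3.37% of all windows did or exceeded. These 2 windows overlap, and their 3 matches are the same sites. In all, CCAAT was found in windows of 6 genes, Duox2, Gpx2, Gpx3, Gpx4, Cat and Sod1, and in 37.4% of all windows. The GC box was found in windows of 6 genes, Duoxa2, Gpx1, Gpx3, Gpx4, Cat and Sod1, and in 35.7% of all windows, the match of Gpx1 lying 8 bases after the start and therefore outside the stretch shown. The antioxidant response element core, the motif bound by Nrf2, occurred in the window of Sod1 alone, against 12.4% of all windows. The AP-1 element occurred in that of Duoxa2 alone, against 7.81% of all windows. These are matches of letters and say nothing about binding in these tissues.

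The glutathione peroxidases differed among themselves. Gpx3, the secreted form found in plasma, had 7.17 in colon and 8.66 in small intestine on its single probe set. This difference of 1.50, or 2.82-fold, lay just short of 3-fold and was matched or exceeded towards the small intestine by 6.35% of the genes. Gpx2, the form typical of the gastrointestinal epithelium, had 11.66 in colon and 12.54 in small intestine, which is 1.84-fold. Gpx4, which reduces lipid hydroperoxides in membranes, had 11.81 and 12.56 on its brighter probe set, a 1.68-fold difference. That set is marked as shared by transcripts of the same gene. The other Gpx4 set, marked as partly shared with other sequences, had 11.20 and 12.39, or 2.28-fold. Towards the small intestine 13.4% of the genes were shifted at least as far as Gpx2 and 16.4% at least as far as Gpx4.

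Gpx1, the widely expressed cytosolic peroxidase, had 12.72 in colon and 12.27 in small intestine. It was the only measured glutathione peroxidase of the 4 that was brighter in the colon, with a difference of -0.45 or 1.36-fold, and 30.6% of the genes were shifted towards the colon at least as far. This difference was below the SD of 0.54 between probe sets of a gene. From the small intestine to the colon the order of the differences was therefore Cat, Gpx3, Gpx2, Gpx4, Sod1 and Gpx1. Neighbours in this order were 0.14 to 0.65 apart, beside the SD of 0.54, and without replicate arrays they could not be told apart.

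**Figure D2:**
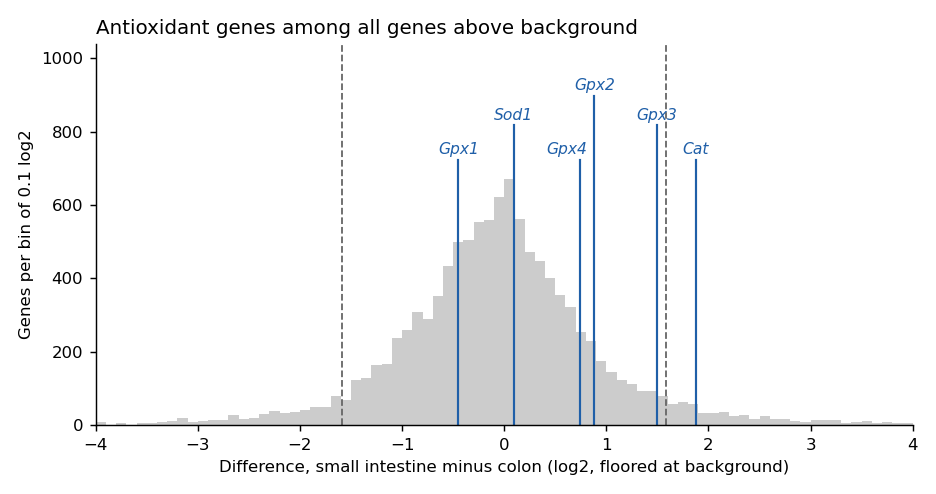
Grey bars count the 11016 genes above background by their difference of small intestine minus colon in bins of 0.1 log2, shown from -4 to 4, and blue lines mark the 6 measured genes of the set above background. Dashed lines mark 3-fold. Cat at 1.87 lies beyond the right dashed line, Gpx3 at 1.50 just inside it, and Gpx1 at -0.45 is the 1 gene of the set left of 0.

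Sod1, the cytosolic copper and zinc superoxide dismutase, was represented by 5 probe sets. The brightest, marked as shared between genes, had 14.18 in colon and 14.27 in small intestine. Another had 13.68 and 13.47, and a dimmer one 7.59 and 7.41. The other 2 lay below background on both arrays, at 4.27 and 4.16 and at 2.41 and 2.43. No set differed by more than 1.16-fold, and the direction depended on the set, with 0.09 for the brightest and -0.21 and -0.18 for the other 2 above background. Sod3, the extracellular dismutase bound to matrix around vessels and muscle, was below background in both tissues on both of its probe sets, with 2.51 and 2.31 in the colon and 2.46 and 2.57 in the small intestine. Duoxa2 had 3.76 in colon and 4.05 in small intestine, also below background. For Sod3 and Duoxa2 no fold is given.

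Of the genes that work with Nox1, those measured were present in both tissues. None reached 3-fold, beside 11.2% of all genes above background in either direction. Noxo1, the organizer subunit, had 10.48 in colon and 9.48 in small intestine, which is 2.00-fold higher in the colon. Cyba, the p22phox subunit, had 9.78 and 9.90, and Rac1 had 12.05 and 12.07. Noxa1 was without a named probe set in the annotation used, so of the Nox1 complex neither the catalytic nor the activator subunit was analysed here. Other oxidases of epithelium and vessels were dim, and Nox4 (3.33 in colon and 3.34 in small intestine), Duox1 (2.70 and 2.82) and its maturation factor Duoxa1 (3.30 and 3.32) lay below background.

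Beside 5.71% of all genes above background, 1 of 4 measured members of the phagocyte oxidase reached 3-fold towards small intestine. This regulatory subunit, Ncf4, had 5.03 in colon and 6.78 in small intestine, which is 3.36-fold, although at a floor of 6 its difference was 0.78. The catalytic subunit Cybb had 5.74 and 7.24 (2.82-fold) on the brightest of its 3 probe sets, the organizer Ncf1 had 4.92 and 6.23 (at least 2.35-fold), and the GTPase Rac2 had 3.54 and 5.19 (at least 1.14-fold). The median over these 4 was 1.36, but with the median over probe sets Cybb fell to 0.46 and Ncf1 to 0, since their other sets were dim. Macrophage markers ran in no common direction, with Csf1r at 9.22 in colon and 9.96 in small intestine and Cd14 at 7.70 and 5.86, and their summed level was 10.18 and 10.33. Of the haem peroxidases, which use hydrogen peroxide to oxidise halides and thiocyanate, lactoperoxidase (Lpo) had 7.63 in colon and 2.75 in small intestine, and was thus at least 6.19-fold brighter in colon. Mpo (2.39 and 2.41) and Epx (2.65 and 2.37), the peroxidases of neutrophils and eosinophils, were below background.

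The remaining glutathione peroxidases and dismutases showed small differences. None of 6 reached 3-fold, beside 11.2% of all genes above background in either direction, and 2 lay below background on both arrays. The median was -0.33 over the 6 and -0.49 over the 4 above background. Each of these 4 was brighter in the colon on its brightest probe set. The mitochondrial dismutase Sod2 had 12.41 in colon and 11.73 in small intestine on its brightest probe set, a difference of -0.69, whereas its other 2 sets above background differed by -0.15 and 0.05. The copper chaperone of Sod1, Ccs, had 7.92 and 7.34, and Gpx8 had 7.19 and 6.79.

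Enzymes that recycle oxidised thiols were mixed. Among 14 measured peroxiredoxin and thioredoxin genes 1 reached 3-fold in each direction and the median was 0.05. Of all genes above background, 5.71% reached it towards small intestine and 5.49% towards colon. Sulfiredoxin (Srxn1), which repairs overoxidised peroxiredoxins, had 10.44 in colon and 12.29 in small intestine, or 3.62-fold. All 4 of its probe sets were higher in the small intestine, by 0.84 to 2.30. The 0.84 is a lower bound, since that set (3.99 and 5.84) was below background in the colon. The thioredoxin inhibitor Txnip had 12.76 and 11.14, or 3.08-fold higher in the colon, and its other set differed by -2.50. Thioredoxin itself (Txn1) was even, with 14.77 and 14.74. Glutaredoxin (Glrx) had 11.64 and 12.72, and the peroxiredoxin Prdx2 had 11.70 and 11.03. Their other probe sets leaned the opposite way, with 9.31 and 9.19 for Glrx and 7.61 and 7.93 for Prdx2. Prdx1, Prdx5 and Prdx6 were without a named probe set in the annotation used.

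Of 10 measured genes for glutathione and NADPH supply, 9 lay above background. Of these, 2 reached 3-fold, both towards small intestine, beside 5.71% of all genes above background. The median over the 10 was 0.07. Glutathione reductase (Gsr), which returns oxidised glutathione to its reduced form, had 8.76 in colon and 10.76 in small intestine, a 4.0-fold difference, but its dimmer probe set (5.94 and 6.47) differed by 0.52. Ggct, of glutathione breakdown, had 7.14 and 8.91, or 3.42-fold, on 1 of 3 sets, and the other 2 lay below background on both arrays. Glutathione synthetase (Gss) went the other way with 10.91 and 9.78 on its brighter probe set, marked as partly shared with other sequences. Its other set was almost equal, with 8.48 and 8.43, a difference of -0.06. The NADPH-forming enzymes Pgd (11.37 and 11.90) and Idh1 (12.06 and 12.35) differed by less than 1.5-fold.

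Nrf2, encoded by Nfe2l2, switches on many antioxidant genes. Of 16 measured genes in the list of Nrf2 and its targets, Srxn1 favoured small intestine, as above, and the exporter Abcc1, with 9.08 in colon and 6.98 in small intestine, was 4.30-fold higher in the colon, though its second set lay below background on both arrays. The list's median was -0.05, or -0.27 over its 14 genes above background. Of all genes above background, 5.71% passed 3-fold towards small intestine and 5.49% towards colon. Nfe2l2 had 12.00 and 11.28, the ferritin heavy chain Fth1 15.13 and 14.69, and thioredoxin reductase Txnrd1 10.54 and 11.35. The list of selenoproteins and the factors that make them had 16 measured genes, a median of -0.03 and 1 gene past 3-fold, Selenom, with 10.38 in colon and 8.61 in small intestine (3.41-fold). The selenium carrier Selenop had 14.14 and 14.72, Selenof 13.50 and 12.81, and Selenos 13.04 and 12.45.

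**Figure D3:**
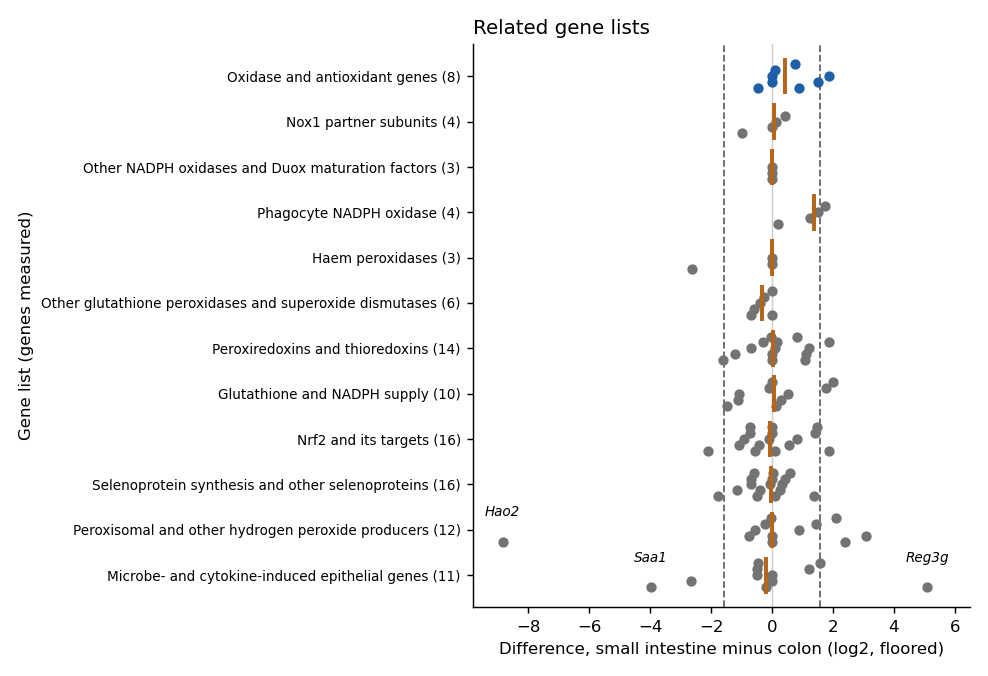
Each point is 1 measured gene, drawn at its log2 difference of small intestine minus colon, with values under background raised to that level, in the set described (blue) and in 11 related lists (grey). Orange bars are medians and dashed lines mark 3-fold. The median of the set is 0.42, that of the phagocyte oxidase 1.36, and Hao2 at -8.84, Saa1 at -3.97 and Reg3g at 5.09 lie furthest out.

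Oxidases that form hydrogen peroxide as a by-product had the widest range of differences among the 11 related lists. Of 12 measured genes, 10 lay above background. Of these, 3 reached 3-fold towards small intestine and 1 towards colon, beside 5.71% and 5.49% of all genes above background. Xanthine dehydrogenase (Xdh), of purine breakdown, had 7.69 in colon and 10.76 in small intestine, an 8.42-fold difference. Monoamine oxidase B (Maob) had 8.50 and 10.60 (4.29-fold), and the D-amino acid oxidase Dao had 2.29 and 7.38 (at least 5.21-fold), a difference that was 1.38 and short of 3-fold at a floor of 6. The peroxisomal hydroxyacid oxidase Hao2 had 13.89 in colon and 5.05 in small intestine. Maoa (13.16 and 12.39), Aoc1 (9.74 and 10.63) and Aoc3 (7.52 and 6.97) differed by less than 2-fold. Both Dao and Hao2 are, like catalase, peroxisomal enzymes, and they stood on opposite sides of the comparison.

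Over all 11 lists, 94 of 106 genes were measured and 79 lay above background on either array. Of the 94, 8 reached 3-fold towards small intestine and 7 towards colon, together 19.0% of the 79. The share over all genes above background was 11.2%. The lists were chosen with earlier results of these data known, and no test was made of this difference. The median over the 79 was -0.03, beside -0.06 over all genes.

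The direction of each difference held under other floors and scalings for Cat and for the 4 glutathione peroxidases, while the call of Cat depended on the choice of probe set. Its difference ran from 1.16, without probe sets that can be shared, to 2.12, after centring on hybridization spike-ins. Gpx3 ran from 1.50 to 1.75, Gpx2 from 0.88 to 1.13, Gpx4 from 0.75 to 0.99 and Gpx1 from -0.45 to -0.20. Sod1 ran from -0.21 to 0.34.

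**Figure D4:**
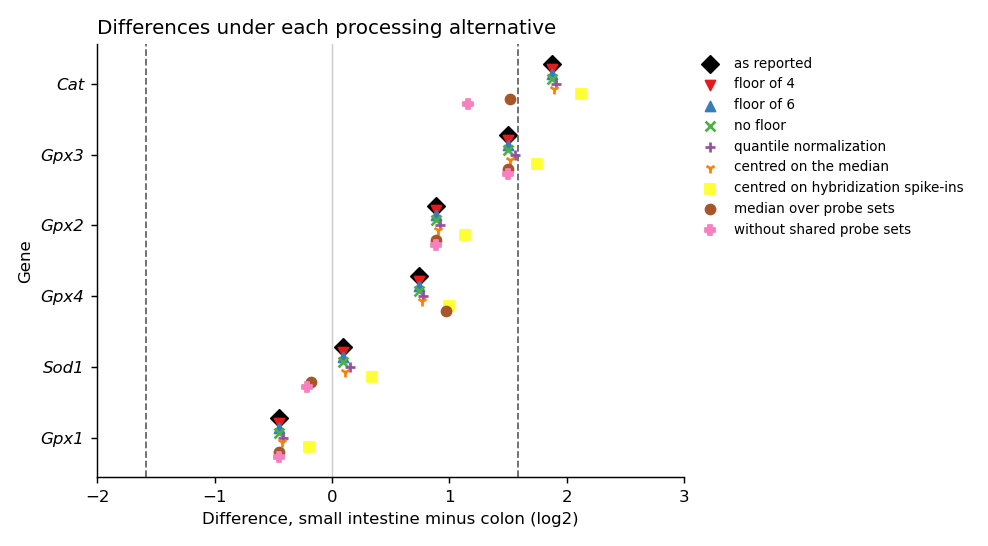
Log2 difference, small intestine minus colon, of the 6 genes above background, as reported (black diamonds) and under each alternative that changes a difference. Dashed lines mark 3-fold. Cat crosses the line to 1.52 and 1.16 with the median over probe sets and without shared probe sets, and Gpx3 reaches 1.75 after centring on spike-ins.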

How the data were processed

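Total RNA, which the authors had extracted on Qiagen columns, was the starting material. The biotin-labelled samples made from it were hybridised to 2 Affymetrix arrays, 1 per tissue. The deposited values are log2 expression per probe set, from 0.73 to 16.97. Per the labels they come from GCRMA, while the paper's methods name RMA, and no version is given. GCRMA can widen differences between bright and dim values.

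Probe sets were named by the platform annotation, and symbols were checked by Entrez identifier against RefSeq. A single gene was named for 34958 of 45101 probe sets, the 932 sets with several genes were left out, and 18194 genes resulted. A gene was taken as its brightest probe set over both arrays, so levels were compared between tissues only, not between genes. Endings _a, _s and _x of a probe set mark probes shared by transcripts of a gene, by several genes, or with unrelated sequences.

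The size of 3-fold was taken from the study, which applied it to sequencing values with another correction for rare transcripts. The floor was not taken from the study. Unless stated otherwise, counts and medians of a list run over all its measured genes. They include genes below background on both arrays, whose difference is 0, while shares of all genes leave such genes out. No test was made, since precision is limited by the number of arrays. Members and lists were chosen with earlier results of these data known. All genes of the set were named, and from each list those past 3-fold and the 3 others with the highest mean level. The rule also named genes with levels nearest to those of Cat and Gpx3, which are left out because levels of different probe sets are not comparable. The steps were tested on simulated data. Python 3.11.15, numpy 2.4.6, pandas 2.3.3 and matplotlib 3.10.9 were used. Alternatives were floors of 4 and 6 and no floor, folds of 2 and 5, 3 other scalings (quantile, median, hybridization spike-ins), the median over probe sets, and the brightest set without those marked _a, _s or _x.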

Additional observations from a re-analysis of the deposited data

How the results depend on the processing

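Cat decided the count of the set. It passed 3-fold under each floor and scaling tried, fell to 1.52 with the median over probe sets and to 1.16 without shared probe sets, and so the count higher in the small intestine was 0 in both. That count was 2 at 2-fold and 0 at 5-fold, and 2 after centring on hybridization spike-ins, where Gpx3 reached 1.75. Of the 11016 genes above background, 1265 passed 2-fold towards small intestine and 1481 towards colon, and 309 and 260 passed 5-fold. The set's count higher in the colon was 0 under all alternatives. The directions of Cat, Gpx1, Gpx2, Gpx3 and Gpx4 held wherever they had a value, Gpx4 having none without shared probe sets, and Sod1 changed sign, to -0.18 with the median over probe sets and to -0.21 without shared ones. The median of the genes above background lay between 0.75 and 1.06. Centring on 18 hybridization spike-in probe sets, whose differences ran from -1.52 to 0.33, moved the median of all genes from -0.06 to 0.17 and the share of calls higher in the small intestine from 51.0% to 65.2%, and Gpx1 was then at -0.20.

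Counts of the related lists that moved are given as small intestine, then colon, and a list not named kept its count within 1.5 times. At 2-fold the phagocyte oxidase had 3 in the small intestine, peroxiredoxins and thioredoxins 4 and 2, glutathione supply 3 in the colon, Nrf2 targets 3 and 2, selenoproteins 1 and 2, and microbe- and cytokine-induced genes 3 in the small intestine. At 5-fold the counts of the phagocyte oxidase, peroxiredoxins and thioredoxins, glutathione supply, Nrf2 targets and selenoproteins were 0. The phagocyte oxidase had 0 at a floor of 6, and 2 without a floor or centred on spike-ins. Txnip (-1.58 by quantile normalization and -1.37 with spike-ins) left the colon count of thioredoxins at 0. With spike-ins Nrf2 targets had 3 in small intestine, and selenoproteins 1 and 0 (Selenom at -1.52). With the median over probe sets glutathione supply had 0 (Gsr 1.26, Ggct 0) and Nrf2 targets 0 in the colon (Abcc1 -1.03). Without shared probe sets thioredoxins and Nrf2 targets had 0 in the small intestine (Srxn1 1.54) and glutathione supply 1. Microbe-induced genes had 2 in the small intestine after centring on the median or spike-ins, 3 with the median over probe sets, and 2 and 1 without shared probe sets. Of 734 values of 94 single list genes, 34 moved by more than 0.54 and none past 3-fold reversed. No paired analysis was possible because each tissue had 1 array. Dim genes such as Duoxa2, Sod3 and Ncf1 are limited by their signal over background.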

Other observations

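Genes that epithelium raises on contact with microbes or cytokines, the setting in which Duox2 and Duoxa2 are known to be induced, went in both directions. The lectin Reg3g had 9.0 in colon and 14.08 in small intestine, and Reg3b had 13.69 and 15.26 (2.97-fold) on its brighter probe set and 11.63 and 15.43 on the other, with a median over both sets of 2.68, past 3-fold. The acute phase proteins Saa1, with 13.67 and 9.70 (15.7-fold), and Saa2, with 8.83 and 6.17 (6.32-fold), were higher in the colon. The other Saa1 set had 14.11 and 8.81. The only Saa2 set is marked as partly shared with other sequences, and whether it picks up Saa1 was not tested. The immunoglobulin transporter Pigr (14.71 and 14.51) and the cytokine Il18 (11.86 and 11.36) differed by less than 1.5-fold. Of the 11 genes, 1 reached 3-fold towards small intestine and 2 towards colon, beside 5.71% and 5.49% of all genes above background. The list median was -0.20, or -0.46 over its 9 genes above background. The inducible nitric oxide synthase Nos2, like Duoxa2, was below background, with 2.53 and 2.54, and was named after its value was seen.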
